A study of Mus musculus with 2 samples.

Results

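The connexin genes described here are 9 of the 20 connexin genes in the feature lists: Gja1, Gja3, Gja4, Gja5, Gjb1, Gjb2, Gjb6, Gjc1 and Gjd2. They were taken by symbol from 31053 features. The 9 were chosen from measured values of these same 2 libraries, with the absence of Gjb1 from the mutant pigment epithelium already known, so that difference is given as a description and supports nothing further. Single cells were profiled from mouse eye cups at postnatal day 0, with 1 library from Myrf fl/fl pups (control) and 1 from Rx>cre Myrf fl/fl pups (mutant), each a pool of 3 eye cups. Both genotypes carry the floxed Myrf alleles, and the mutant alone carries the Rx>cre transgene, which is active in the early eye field, the source of neural retina and of retinal pigment epithelium (RPE). Cornea, lens and optic nerve had been removed before the tissue was dissociated with papain. With 1 library for each genotype no test was possible, and every interval below is a 95% interval of counting error only.

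Connexins are membrane proteins that assemble into hexameric hemichannels. Hemichannels of neighbouring cells dock into gap junctions, which pass ions and small metabolites from cell to cell. The isoforms differ in their tissues: the pigment epithelium is a coupled sheet in which Gja1 is the best known isoform, the lens fibres use Gja3, arteries and mural cells use Gja4, Gja5 and Gjc1, and electrical synapses of neurons use Gjd2. Gjb1 is best known from hepatocytes and from myelinating glia, and mutations of the human gene cause an X-linked peripheral neuropathy.

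Transcripts were counted as unique molecular identifiers (UMIs), 79017429 of them over 14305 control barcodes and 76272867 over 12222 mutant barcodes. The median barcode held 4201 UMIs in the control library and 4952 in the mutant library. Quality limits and doublet removal left 12449 control and 10797 mutant cells, and 59 barcode sequences occurred in both libraries. Clustering without any connexin gene gave 37 clusters, of which 32 were joined into 16 classes named from marker genes. The other 5, with 2090 control and 1501 mutant cells, stayed unnamed and are in no class. Lens-like cells (68) were found in the control library only. Levels are given in CPM, the UMIs of a gene divided by all UMIs of its class and multiplied by 1000000, and they compare 1 gene between classes and libraries, never different genes.

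The 510 control and 196 mutant RPE-like cells came from 1 cluster in which 8 of 10 RPE markers were enriched at least 2-fold over the other clusters. The 10 markers summed to 28587 CPM in control and 19679 CPM in mutant cells. Pmel stood at 13753 CPM in control and 10719 CPM in mutant cells, and Rlbp1, a retinoid-binding protein of the visual cycle, at 802 and 342 CPM. Ttr stood at 4871 and 1146 CPM, and Tyrp1, Dct, Otx2 and Slc45a2 were lower in the mutant too. Tyr, the first enzyme of melanin synthesis, was higher, at 938 and 1174 CPM, and the pigment cell factor Mitf stood at 170 and 159 CPM with an interval of the ratio that includes equality. Rpe65, the visual cycle isomerase that defines mature RPE, was nearly absent, with 12 UMIs in control and 0 in mutant cells. The cells differed in depth, with medians of 2464 UMIs in control and 10166 in mutant cells. Mesenchyme markers summed to 2668 CPM in control and 330 CPM in mutant cells, and astrocyte markers to 1474 and 3402 CPM, while the 8 endothelial markers stood at 65.6 and 51.8 CPM. The astrocyte list includes Igfbp2 and the mesenchyme list Lum, which the study reports as raised and lowered in mutant RPE. The sums can therefore mix RNA of other cells with changes in the RPE cells themselves. The part that RNA of other cells plays in the differences below was not tested. Myrf itself, counted from 3′ ends that need not lie in the deleted part, stood at 745 UMIs (227 CPM) in control and 61 UMIs (26.8 CPM) in mutant RPE-like cells.

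**Figure D1:**
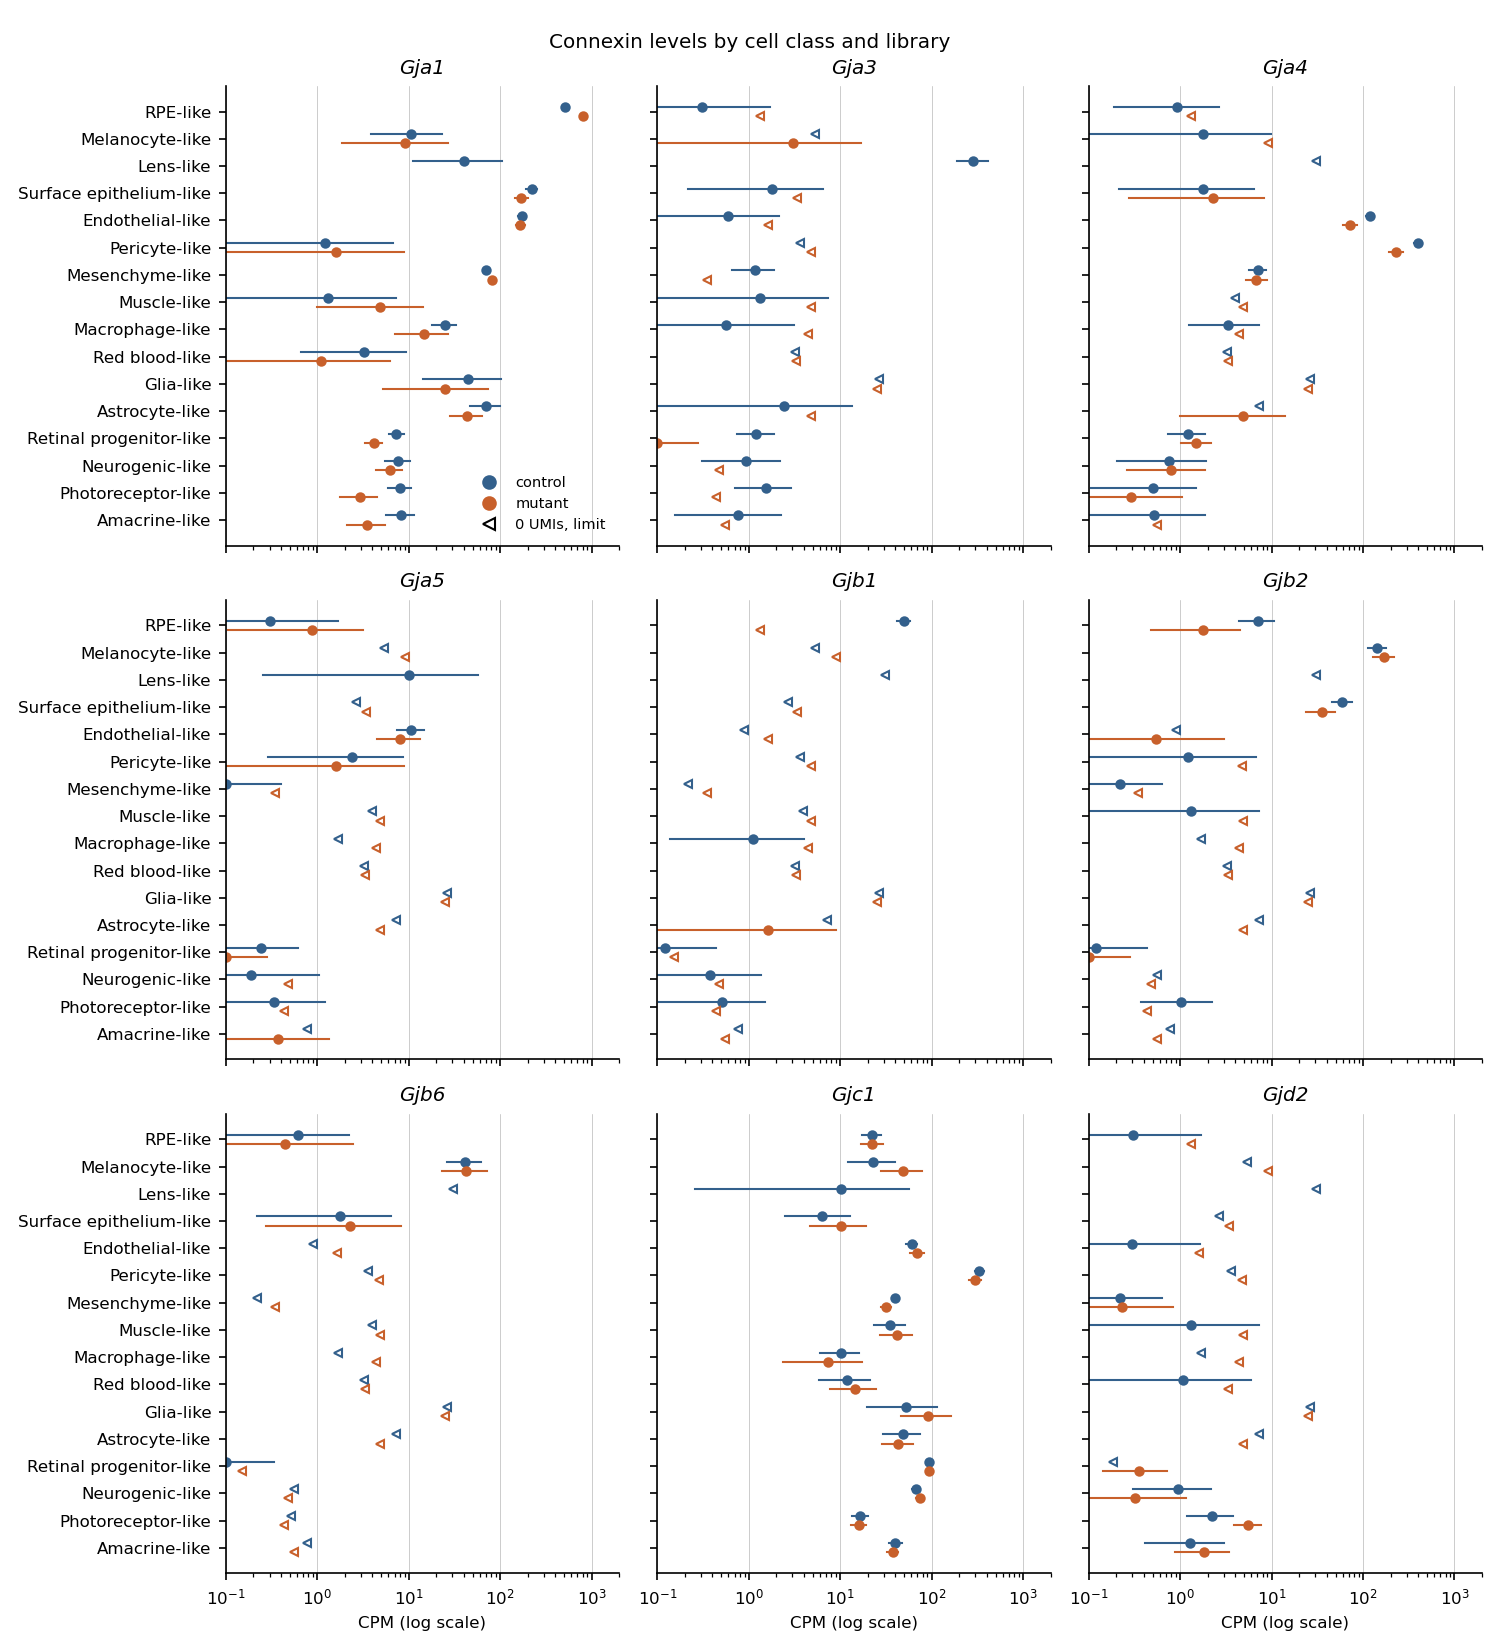
Level of each of the 9 connexin genes in the 16 cell classes, in CPM on a log scale, control in blue and mutant in orange, with 95% counting intervals as lines and open triangles at the upper limit where no UMI was found. Points below 0.1 sit on the left edge. Gja1 and Gjb1 were highest in RPE-like cells, Gja4 and Gjc1 in pericyte-like cells, Gjb2 and Gjb6 in melanocyte-like cells, Gja5 in endothelial-like cells, Gja3 in lens-like cells of the control and Gjd2 in photoreceptor-like cells.

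Gjb1 lies on chromosome X (GRCm38, chrX:101376378-101385629, plus strand). RefSeq promoter windows on GRCm38.p6 were found for 8 of the 9 genes, all but Gjc1, and Gjb1 alone had 4 annotated starts. The stretches before the second and the fourth start are shown because Gjb1 is the connexin missing from the mutant RPE and because both hold the letters CTGGNAC, the motif of MYRF, the factor whose gene was deleted. Each runs for 250 bases, 5′ to 3′ on the plus strand, and ends at the base before the start, and capitals mark the motifs that were searched for on both strands.
Gjb1 start 4, chrX:101383482-101383731: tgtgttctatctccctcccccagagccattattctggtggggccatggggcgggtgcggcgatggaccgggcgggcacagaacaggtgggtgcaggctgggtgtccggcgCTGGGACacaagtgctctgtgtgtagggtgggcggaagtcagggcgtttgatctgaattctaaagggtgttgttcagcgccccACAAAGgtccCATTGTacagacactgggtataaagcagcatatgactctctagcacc
Gjb1 start 2, chrX:101376985-101377234: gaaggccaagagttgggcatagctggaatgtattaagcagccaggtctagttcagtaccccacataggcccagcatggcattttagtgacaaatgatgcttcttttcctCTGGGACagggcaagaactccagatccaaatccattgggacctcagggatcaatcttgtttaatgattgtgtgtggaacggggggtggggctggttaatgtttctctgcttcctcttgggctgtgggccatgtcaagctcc
In the window of start 4, CTGGNAC began 140 bases before the start, the SOX motif ACAAAG 57 bases before it, and a second SOX motif, ACAATG read from the minus strand, 47 bases before it. None of these matches overlapped another. In the window of start 2, CTGGNAC began 141 bases before the start and no other motif was present. Start 1 held ACAAAG, the related SOX motif AACAAT and the E-box CATGTG but no CTGGNAC, and start 3 held none of the motifs searched. Such matches are common: among 32851 promoter windows of 300 bases, 19.28% held CTGGNAC, 18.71% ACAAAG, 12.57% ACAATG, 10.72% AACAAT and 14.15% CATGTG. A second E-box, CACGTG (7.15%), was in none of the 8 genes' windows. Any of the SOX motifs occurred in 33.2% of windows, and ACAAAG with ACAATG anywhere in the window in 2.68%. ACAAAG and ACAATG starting within 20 bases of each other, as before start 4, occurred in 0.423%. That narrow pattern was not among the single motifs planned and describes what start 4 holds, and Gjb1 had 4 windows to match. The last share therefore does not measure how unusual Gjb1 is. The libraries were read from 3′ ends and do not tell which start was used. Among the other genes, CTGGNAC was present before both starts of Gja3 and 250 bases before the start of Gja4, and ACAAAG before that of Gja5. The windows of Gja1, Gjb2, Gjb6 and Gjd2 held none of these letters.

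In control eye cups Gjb1 was almost restricted to the pigment epithelium. RPE-like cells held 162 of the 174 Gjb1 UMIs of kept control cells (93.1%), at 49.4 CPM (42.1 to 57.6). The other 12 UMIs were scattered, with no more than 3 in any named class. No Gjb1 UMI was found in the 196 mutant RPE-like cells, whose total of 2275881 UMIs allows up to 1.32 CPM, so that the level was at least 37.5-fold lower than the control value (a log2 bound of -5.23, or -4.91 with the counting error of the control level included). The only Gjb1 UMI among kept mutant cells lay in an astrocyte-like cell. CPM is taken within the class, so it is not a count of RPE cells.

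The RPE-like cells were divided by depth. Among cells of over 8000 UMIs, Gjb1 stood at 53.0 CPM in 151 control cells (133 UMIs) and at 0 UMIs in 109 mutant cells. Among cells of over 4000 and up to 8000 UMIs it stood at 40.2 CPM in 47 control cells, and among those up to 4000 UMIs at 36.4 CPM in 312, again with 0 UMIs in the mutant cells. In the last of these strata the 63 mutant cells were so shallow that the bound was only 1.21-fold and its interval includes equality, so no difference can be read there.

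Gjb1 is X-linked, and the 2 pools differed in sex-linked transcripts. Among endothelial-like cells 63 control cells had Xist alone and 188 had Y-linked UMIs alone, against 90 and 31 mutant cells. Sex of the pups and genotype are therefore mixed in every ratio over a whole class, and the part of sex was not tested. The RPE-like cells were also divided by sex-linked transcripts. Control cells with Xist alone held 51 Gjb1 UMIs (56.6 CPM in 81 cells), and those with Y-linked UMIs alone held 70 (49.3 CPM in 134 cells). Their intervals overlapped. The 76 mutant cells with Xist alone and the 33 with Y-linked UMIs alone held none.

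**Figure D2:**
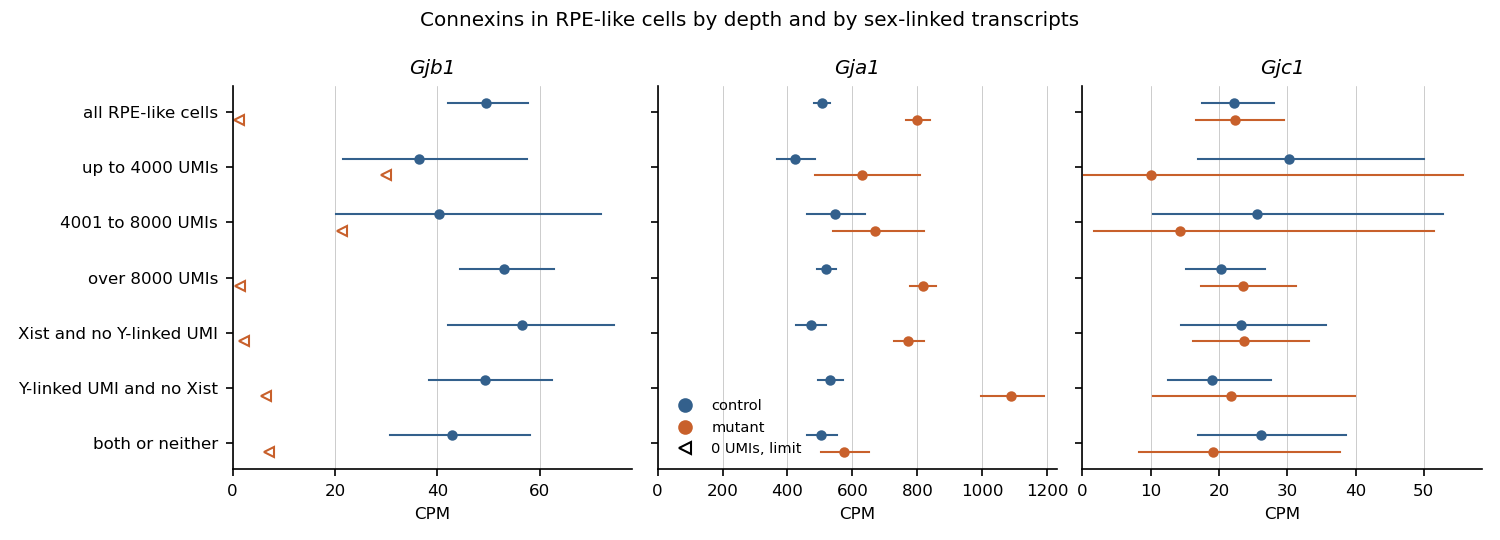
Gjb1, Gja1 and Gjc1 in RPE-like cells, in CPM on a linear axis, over all such cells, 3 depth strata and 3 groups by sex-linked transcripts, control in blue and mutant in orange, with 95% counting intervals; open triangles give the limit where no UMI was found. Gjb1 was at 0 UMIs in the mutant in every stratum, Gja1 was higher in the mutant in every stratum, and the Gjc1 intervals of both libraries overlapped over all RPE-like cells.

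Within the control RPE-like cells, Gjb1 was sparse. A UMI was found in 96 of 510 cells (18.8%), of which 60 held 1, 19 held 2 and 17 held 3 or more, up to 6. The 10 richest cells held 26.5% of the UMIs. With every cell thinned to 1000 UMIs, 18 of 406 control cells (4.43%, Clopper-Pearson 2.65 to 6.92) and 0 of 169 mutant cells had a UMI, the latter allowing up to 1.78%. In retinal progenitor-like cells of the control (median 4520.5 UMIs), which should lack the gene, 1 of 3311 thinned cells had one (0.0302%). The share in RPE-like cells thus lay above that background, and most control RPE-like cells had no detectable Gjb1 at this depth.

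Transcripts of MYRF and SOX10, the latter known to act on Gjb1 in myelinating glia, were lower in the same cells. Sox10 stood in RPE-like cells at 78.4 CPM (257 UMIs) in the control, against 4.83 CPM (11 UMIs) in the mutant. Tmem98, which encodes a membrane protein that binds MYRF, stood at 523 CPM in control and 156 CPM in mutant cells. In thinned control RPE-like cells, Gjb1 was present in 6 of 74 cells with a Myrf UMI (8.11%) and in 12 of 332 without (3.61%). With Tmem98 the shares were 7.75% of 129 cells and 2.89% of 277, and with Sox10 they were 6.67% of 30 and 4.26% of 376. With Gja1 they were 5.11% of 137 and 4.09% of 269. All 4 pairs of intervals overlapped, and no difference could be detected with so few cells.

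Over all kept cells outside the RPE-like class, Sox10 was lower in the mutant too (log2 ratio -0.58, -0.83 to -0.34). In glia-like cells it stood at 873 CPM in control and 846 CPM in mutant cells, and in melanocyte-like cells at 377 and 324 CPM, both with intervals of the ratio that include equality. Gjb1 was at 0 UMIs in the glia-like and the melanocyte-like cells of both libraries. The classes are small, with 21 and 18 glia-like and 30 and 18 melanocyte-like cells. After thinning, a share of 0 still allows up to 15.8% and 16.7% of glia-like cells, and 10.0% and 16.7% of melanocyte-like cells. Such limits lie above the share found in control RPE-like cells, so absence cannot be read.

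The genes whose levels over classes were most like that of Gjb1 were chosen by Pearson's r of log2(CPM + 1) over 24 points, 12 classes in each of the 2 libraries, and are named as a description. They were Krt23 (r = 0.97), Htr3a (0.96), Map6d1 (0.95), Slc6a20a (0.94) and A930028N01Rik (0.92). The points share libraries and depth, and a gene confined to control RPE-like cells must rank high. In RPE-like cells Htr3a, a serotonin receptor subunit, held 468 UMIs in control and 4 in mutant cells. Slc6a20a, an amino acid transporter, held 121 and 4, and the keratin Krt23 held 45 and 1.

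Gja1, the main gap junction isoform of many epithelia and of heart and astrocytes (chr10:56377330-56402513, plus strand), had a higher level in the mutant pigment epithelium. RPE-like cells had its highest level in both libraries, with 1662 UMIs in the control (507 CPM, 483 to 532) and 1820 UMIs in the mutant (800 CPM, 763 to 837). The mutant level was 1.58-fold that of the control (log2 ratio 0.66, 0.56 to 0.75). Opposite directions were thus measured for Gja1 and Gjb1 in the same cells. A fold of 1.58 lies inside the 2-fold limit used for counting below.

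The direction of Gja1 in RPE-like cells was the same in every stratum, and the size was not. At over 8000 UMIs the levels were 519 CPM in control and 817 CPM in mutant cells, and at up to 4000 UMIs 424 and 630 CPM. Between these depths they were 545 and 670 CPM, with a log2 ratio of 0.30 whose interval includes 0. Cells with Y-linked UMIs alone gave 532 and 1089 CPM, while cells with both or neither kind of sex-linked UMI gave 504 and 574 CPM, with a log2 ratio of 0.19 whose interval also includes 0.

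Gja1 was also found in more cells. Of 510 control cells 300 had a UMI (58.8%), and of the 196 mutant cells, which are deeper, 157 (80.1%). After thinning to 1000 UMIs the shares were 33.7% (29.2 to 38.6) and 47.3% (39.6 to 55.2), and the intervals did not overlap. Red blood-like cells, which should lack the gene, gave 0.885% in the control (median 3579 UMIs) and 1.20% in the mutant (median 11715 UMIs).

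**Figure D3:**
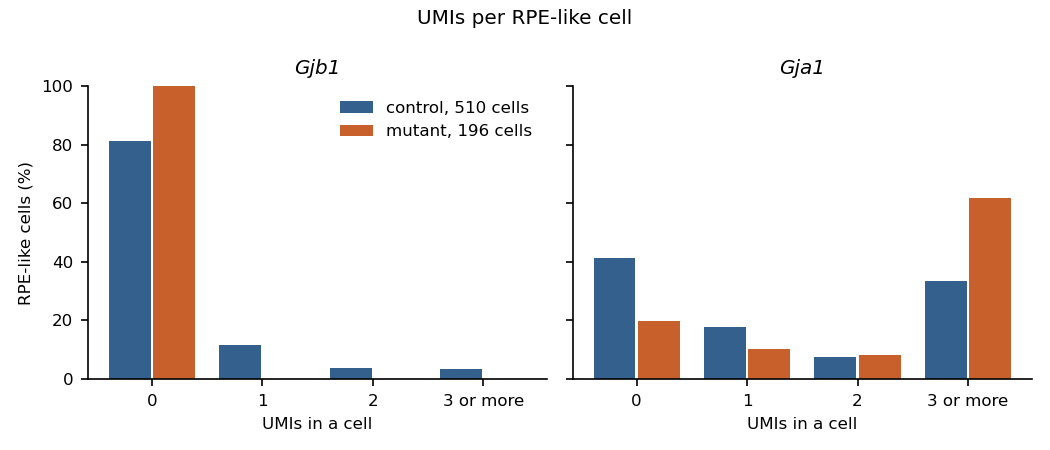
Share of RPE-like cells (%) with 0, 1, 2 or at least 3 UMIs of Gjb1 (left) and Gja1 (right), not thinned, for 510 control cells in blue and 196 mutant cells in orange, with median depths of 2464 and 10166 UMIs. All 196 mutant cells had 0 Gjb1 UMIs, and 121 of them had at least 3 Gja1 UMIs against 171 of the 510 control cells.

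Outside the pigment epithelium the Gja1 order was surface epithelium, endothelium and mesenchyme. Surface epithelium-like cells had 221 CPM in control and 170 CPM in mutant cells (log2 ratio -0.38, -0.68 to -0.08). The difference lay in the Krt13 cluster, at 239 and 107 CPM, and not in the Krt14 cluster, at 208 and 254 CPM, so the class value mixes clusters of opposite sign. Endothelial-like cells had 172 and 165 CPM (log2 ratio -0.06, an interval that includes 0). These classes lay apart in the control (194 to 250 CPM in surface epithelium, 158 to 187 in endothelium), while their mutant intervals overlapped. Mesenchyme-like cells had 70.9 and 81.2 CPM (log2 ratio 0.20, 0.06 to 0.34). Astrocyte-like cells had 69.7 and 43.4 CPM with overlapping intervals. Pericyte-like cells had 1 UMI in each library.

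In retinal neurons and progenitors Gja1 was near the bottom of its range and lower in the mutant. Photoreceptor-like cells had 7.98 CPM in control and 2.91 CPM in mutant cells, amacrine-like cells 8.17 and 3.50 CPM, retinal progenitor-like cells 7.34 and 4.17 CPM, and neurogenic-like cells 7.69 and 6.21 CPM, the last with a log2 ratio of -0.31 whose interval includes 0. The control levels thus spanned only 7.34 to 8.17 CPM over these classes. Transcripts of pigment cells moved with them: Ttr, Pmel, Tyrp1 and Dct summed in photoreceptor-like cells to 123 CPM in control and 55.0 CPM in mutant cells, and in progenitor-like cells to 70.5 and 37.5 CPM. The part of such free RNA in the Gja1 values was not tested.

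The 5 genes most like Gja1 over the same 24 points were Dmtn (r = 0.93), Npnt (0.91), Abcc4 (0.91), Flrt2 (0.88) and Bhlhe40 (0.86). In RPE-like cells the matrix protein gene Npnt stood at 78.1 CPM in control and 125 CPM in mutant cells, Abcc4, an export pump, at 14.3 and 30.8 CPM, and Flrt2, an adhesion protein gene, at 83.0 and 107 CPM. For Dmtn and Bhlhe40 the interval of the ratio includes equality. The 24 points include the RPE-like cells of both libraries, so likeness to Gja1 there is part of how the genes were chosen.

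Gjb2 and Gjb6, the connexin pair of cochlear supporting cells and skin, are neighbours on chromosome 14 (chr14:57098600-57104702 and chr14:57123303-57133611, both minus strand), 18601 bases apart. Both were highest in melanocyte-like cells, a class of 30 control and 18 mutant cells. Gjb2 had 81 UMIs there in the control (144 CPM, 114 to 179) and 56 in the mutant (170 CPM, 128 to 220), and Gjb6 had 23 (40.8 CPM) and 14 (42.4 CPM). Neither differed between the libraries beyond its counting interval, and the classes are small. A Gjb2 UMI was present in 26 of 30 and 17 of 18 of these deep cells, with median depths of 18380 and 16816 UMIs, and in 0 red blood-like cells of either library.

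Gjb2 was also found in surface epithelium-like cells. It stood there at 59.0 CPM in the control (66 UMIs) and 35.2 CPM in the mutant (31 UMIs), a log2 ratio of -0.75 (-1.41 to -0.11). It came from the Krt14 cluster, at 83.0 and 47.6 CPM, while the Krt13 cluster had 25.6 and 25.8 CPM. Gjb6 had 2 UMIs in each library.

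In RPE-like cells Gjb2 was scarce and lower in the mutant, with 23 UMIs (7.02 CPM, 4.45 to 10.5) against 4 (1.76 CPM, 0.48 to 4.50), 3.99-fold lower (log2 interval -3.99 to -0.45). In cells gated by pigment genes instead of clustered, the log2 ratio was -0.65 (-1.71 to 0.33), and with a mitochondrial limit of 5% or in cells with Y-linked UMIs alone the interval also includes 0. The control intervals of melanocyte-like, surface epithelium-like and RPE-like cells did not overlap. Most like Gjb2 over classes were Eps8l2 (r = 0.96), Gsta2, Ripk4, 2610528A11Rik and Aqp3, while Gjb6 had too few UMIs to be ranked.

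Gja4 and Gja5 are the connexins of arterial endothelium. Gja4 (chr4:127311421-127314039, minus strand) was highest in pericyte-like cells, the mural cells around small vessels, with 331 UMIs in the control (399 CPM, 357 to 444) and 145 in the mutant (230 CPM, 194 to 271). Endothelial-like cells followed, with 398 UMIs (118 CPM, 107 to 131) and 133 UMIs (71.9 CPM, 60.2 to 85.2). Gja4 was thus lower in the mutant library in both vessel classes, by 1.73-fold in pericyte-like and 1.65-fold in endothelial-like cells. Neither reached 2-fold. The pericyte-like value was not stable: its log2 ratio of -0.79 went to 0.082 with a mitochondrial limit of 5%, and to -0.47 without integration or with called doublets kept.

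The vessel result varied with depth and sex-linked transcripts. In endothelial-like cells Gja4 stood at 98.2 CPM in control and 54.6 CPM in mutant cells over 8000 UMIs, and at 327 and 167 CPM between 4000 and 8000 UMIs. At up to 4000 UMIs it stood at 95.1 and 119 CPM, on 36 and 7 UMIs, with an interval that includes 0. With Xist alone it stood at 132 and 96.6 CPM, again with an interval that includes 0, and with Y-linked UMIs alone at 116 and 36.3 CPM (log2 ratio -1.68). In pericyte-like cells the levels with Xist alone were 489 and 214 CPM, with Y-linked UMIs alone 436 and 277 CPM, and with both or neither 202.0 and 202.3 CPM. The share of pericyte-like cells with a Gja4 UMI was 65.1% and 64.1% before thinning and 26.5% (17.4 to 37.3) and 15.9% (7.88 to 27.3) after it, with overlapping intervals. For endothelial-like cells the shares were 17.8% and 18.7% before thinning. After it they were 7.65% (5.18 to 10.8) and 3.82% (1.42 to 8.13), again with overlapping intervals. Red blood-like cells had no Gja4 UMI in either library.

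Within the control endothelial-like cells Gja4 went with arterial genes. After thinning, Gja4 was found in 10 of 62 cells with a UMI of an arterial gene and none of a venous or capillary gene (16.1%, 8.02 to 27.7), and in 3 of 134 cells with the reverse (2.24%, 0.464 to 6.40). The intervals did not overlap. Gja1 gave 17.7% and 13.4% of the same cells, with intervals that did. In the mutant the Gja4 shares were 2 of 25 and 1 of 58 cells, too few to read.

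The other arterial genes were also compared. Of the 7 in the list 6 had at least 20 UMIs in endothelial-like cells, and 0 lay past 2-fold (5.06% of all genes of the class did), a limit that Gja4 did not reach either, with a median log2 ratio of -0.18 and a lowest of -0.50. Efnb2 stood at 101 CPM in control and 118 CPM in mutant cells, Sox17 at 133 and 108 CPM, and Dll4, a Notch ligand, at 57.4 and 55.1 CPM. All 4 venous and capillary genes lay within 2-fold too, with a median of -0.04, and over all genes of the class the median was -0.02.

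Gja5 (chr3:96904693-97077416, plus strand) had 36 UMIs in control and 15 in mutant endothelial-like cells (10.7 and 8.11 CPM, log2 ratio -0.40, -1.38 to 0.50). The class held 73.5% of its control and 68.2% of its mutant UMIs. They came from 13 of 426 and 4 of 166 cells, so a few cells set each level. The ratio turned with depth: cells up to 4000 UMIs had 8 UMIs in control and 9 in mutant cells (21.1 and 153 CPM), and cells over 8000 had 23 and 3 (8.59 and 1.95 CPM). No direction can be read for Gja5. Its span overlaps another gene on the opposite strand, and the sources used here do not state that counting kept the strands apart.

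Among the genes most like Gja4 over classes were Hrct1 (r = 0.96), Pear1, Foxf2 and Tbxa2r, and most like Gja5 was Flt4 (0.97), followed by Adgrf5, Gpr182, Abcb1a and Ssu2. In pericyte-like cells Hrct1 stood at 50.6 CPM in control and 82.6 CPM in mutant cells. Pear1 stood at 112 and 85.8 CPM and Tbxa2r at 72.3 and 58.8 CPM, with intervals of the ratio that include equality.

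Gja3 (chr14:57034460-57058100, minus strand) is a connexin of lens fibres, in which mutations cause cataract. The lens had been removed, yet 68 control cells formed a lens-like cluster, and Gja3 stood there at 285 CPM (28 UMIs, 189 to 412). No mutant cell fell in the cluster, so the libraries cannot be compared in lens-like cells. The size of the class depended on the setting. It held 255 control and 1 mutant cells at a Louvain resolution of 2, and 259 and 1 with no gene kept out of clustering. With called doublets kept it held 232 and 1, and with a mitochondrial limit of 5% 604 and 211. Outside the 68 lens-like cells of the main setting the control held 80 Gja3 UMIs and the mutant 4.

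Other lens transcripts were found outside the cluster too. The 8 lens markers summed to 347 CPM outside lens-like cells in the control and to 80.0 CPM in the mutant. In retinal progenitor-like cells Gja3 had 20 UMIs in the control (1.21 CPM) and 1 in the mutant (0.0502 CPM), a log2 ratio of -4.60 (-9.97 to -1.95), while the lens markers stood at 189 and 2.81 CPM. Photoreceptor-like cells had 9 and 0 Gja3 UMIs, with lens markers at 263 and 7.12 CPM. For every 1000 lens-marker UMIs of the control there were 1.93 Gja3 UMIs in lens-like cells and 3.35 outside them, while the mutant had 0.779 outside. Control RPE-like cells, at 1320 CPM of lens markers, held 1 Gja3 UMI. The part of free lens RNA in the Gja3 difference was not tested beyond these ratios. Most like Gja3 over classes were Crygs (r = 0.85), Kdm5d, Cryba2, Crygd and Cryaa, 4 of which are crystallin genes.

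Gjc1 (chr11:102799579-102819700, minus strand), an isoform of smooth muscle, of the cardiac conduction system and of some retinal neurons, was the most widespread of the 9. Pericyte-like cells had its highest level, 334 CPM in the control (277 UMIs, 295 to 375) and 297 CPM in the mutant (187 UMIs, 256 to 343). Most Gjc1 UMIs nevertheless came from the retina: progenitor-like cells held 1550 of 4134 control UMIs (37.5%) and 1851 of 3950 mutant UMIs (46.9%).

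Gjc1 was nearly equal in both libraries. In progenitor-like cells it stood at 94.0 CPM (89.4 to 98.8) in the control and 92.9 CPM (88.7 to 97.2) in the mutant, a log2 ratio of -0.02 (-0.12 to 0.08), which leaves room for differences of up to that size. Neurogenic-like cells had 67.9 and 73.7 CPM, endothelial-like cells 60.7 and 69.7 CPM, amacrine-like cells 40.1 and 37.8 CPM, RPE-like cells 22.3 and 22.4 CPM, and photoreceptor-like cells 16.6 and 16.0 CPM. In RPE-like cells the counts were low, 73 and 51 UMIs, and the interval of the log2 ratio ran from -0.54 to 0.54. Mesenchyme-like cells were the exception among the large classes, at 39.9 CPM in control and 31.8 CPM in mutant cells (log2 ratio -0.33, -0.54 to -0.11).

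Along the retinal classes the order was progenitor, neurogenic, amacrine and photoreceptor in both libraries, and the intervals of neighbours in it did not overlap in either. Among proliferating clusters the level varied as well. The cluster led by histone genes, which are made in S phase, had 161 CPM in control and 151 CPM in mutant cells. The cluster led by Mybl2 and Ccne2 had 122 and 111 CPM, that led by Ube2c, Plk1 and Ccnb1, genes of mitosis, 75.4 and 76.9 CPM, and that led by Cdkn3 and Cdc20 43.9 and 52.1 CPM. The histone-led cluster thus held more Gjc1 per UMI than the mitosis-led clusters in both libraries.

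After thinning, a Gjc1 UMI was found in 8.15% of control and 8.42% of mutant progenitor-like cells, against 2.65% and 2.41% of red blood-like cells, whose intervals reach 7.56 and 8.43. Among the genes most like Gjc1 over classes were Sept11 (r = 0.89), Hey1, Angpt2 and Neurl1b.

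**Figure D4:**
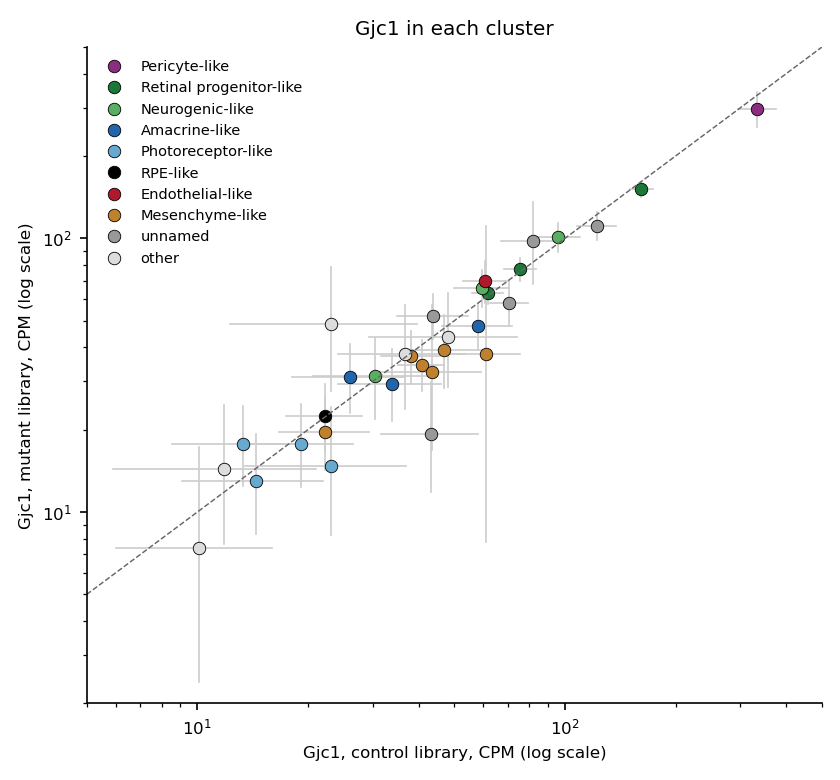
Gjc1 level in each of the 32 clusters with at least 20 UMIs, control library on the horizontal and mutant library on the vertical axis, both in CPM on log scales, with 95% counting intervals in grey and equality as the dashed line; colours give the class. Pericyte-like cells lie at the top (334 and 297), macrophage-like cells at the bottom (10.1 and 7.38), and 1 unnamed cluster led by Klhl35 (43.3 and 19.3) has a ratio whose interval excludes equality.

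Gjd2 (chr2:114009601-114013619, minus strand), the connexin of neuronal electrical synapses, was near the limit of detection at this age. Its highest level was in photoreceptor-like cells, with 13 UMIs in the control (2.21 CPM, 1.18 to 3.78) and 38 in the mutant (5.52 CPM, 3.91 to 7.58), a log2 ratio of 1.32 (0.38 to 2.35). With a mitochondrial limit of 5% the ratio was 0.63 (-0.49 to 1.86) and in thinned cells 0.24 (-1.97 to 2.58). The mutant had as many UMIs or more in each of the 4 photoreceptor-like clusters, at 13 against 4, 13 against 4, 8 against 1, and 4 against 4. After thinning, however, the shares of cells were 0.246% and 0.291%, and red blood-like cells gave 0.885% in the control and 0% in the mutant, so the share cannot be told from background. Amacrine-like cells had 5 and 10 UMIs. A530058N18Rik lies on the opposite strand of the same span, and the sources used here do not state that counting kept the strands apart. Most like Gjd2 over classes were Celf6 (r = 0.86), Carmil2, Pex5l, Gabbr2 and Gm14703.

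Counted over the 12 classes with at least 50 cells in both libraries, 6 pairs of a connexin and a class lay past 2-fold among genes with at least 20 UMIs. In RPE-like cells 4 of the 9 genes had enough UMIs, and Gjb1 and Gjb2 were lower, beside 6.07% of all 11085 genes lower there, while 0 were higher, beside 3.02%. The choice of the 9 genes used the Gjb1 contrast, so nothing is read from this count. In photoreceptor-like cells Gja1 was lower and Gjd2 higher, of 3 genes (3.09% of all genes past 2-fold in either direction). In amacrine-like cells Gja1 was lower, of 2 (3.29%), and in retinal progenitor-like cells Gja3, of 4 (3.34%).

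In the other 8 classes 0 members lay past 2-fold. These were 4 genes in endothelial-like cells (5.06% of all genes past it), 3 in mesenchyme-like cells (3.17%), 2 in each of pericyte-like (5.36%), macrophage-like (8.04%), surface epithelium-like (7.06%) and neurogenic-like cells (2.93%), and 1 in each of muscle-like (7.88%) and red blood-like cells (13.5%). No p-value belongs to these counts. The counting intervals show where a ratio under 2-fold still excluded equality, as for Gja1 in RPE-like cells and Gja4 in both vessel classes.

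**Figure D5:**
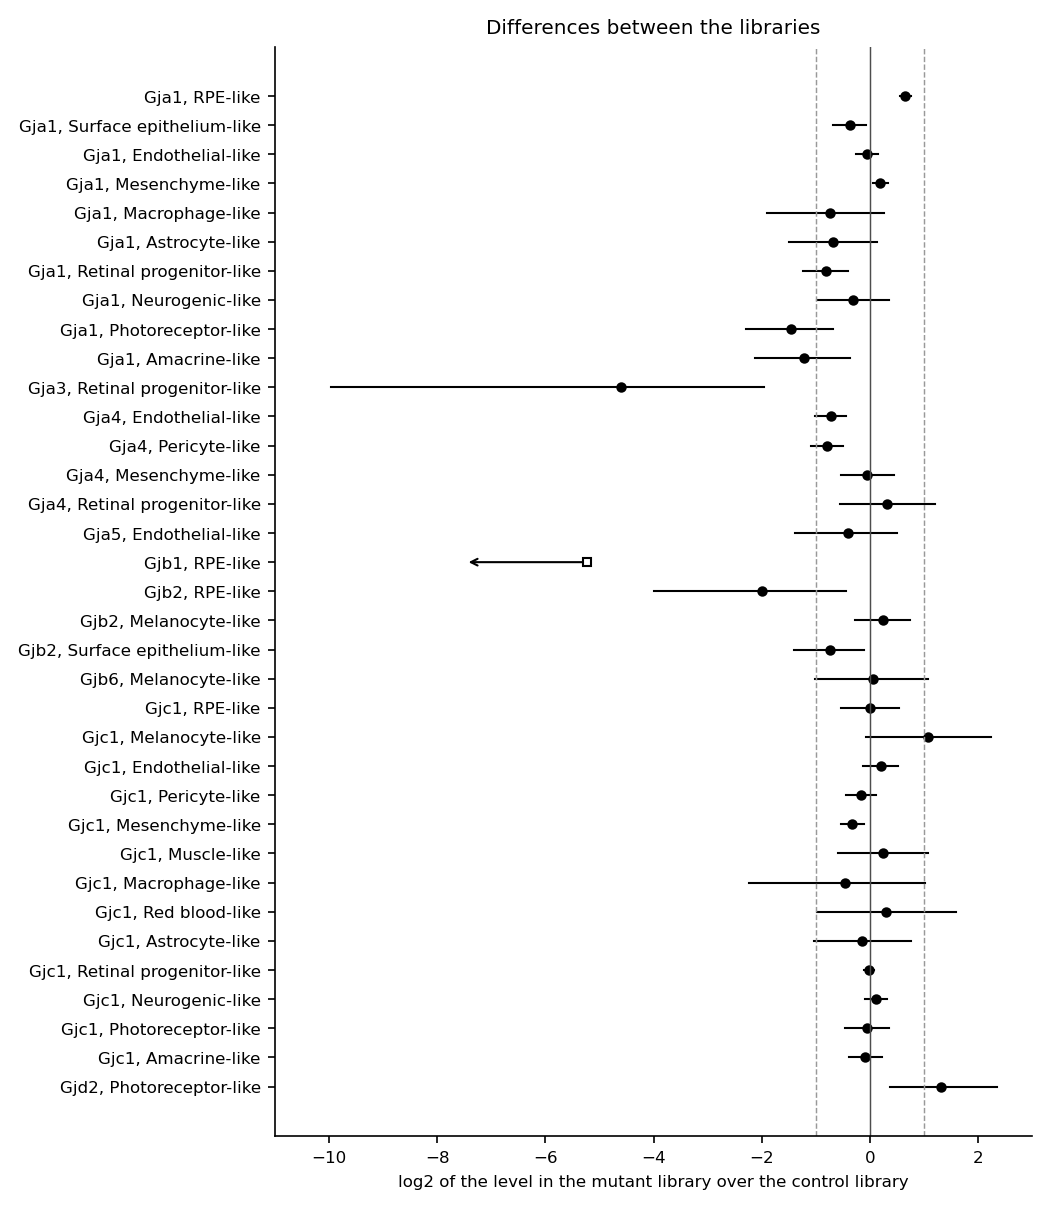
Log2 ratio of the mutant over the control level for the 35 pairs of a connexin and a class with at least 20 UMIs, including melanocyte-like, astrocyte-like and other small classes, with 95% counting intervals; dashed lines mark 2-fold and the square with an arrow is a bound. Gjb1 in RPE-like cells (at or below -5.23) and Gja3 in progenitor-like cells (-4.60) lie farthest to the left, Gjd2 in photoreceptor-like cells (1.32) farthest to the right, and the Gjc1 intervals include 0 except in mesenchyme-like cells (-0.33).

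Of the other 11 connexin genes, Gjd4 had no UMI in the kept cells of either library. Gjc3, a connexin of glia, stood in glia-like cells at 335 CPM in control and 193 CPM in mutant cells. Gje1 stood in photoreceptor-like cells at 5.43 and 3.92 CPM. Gjb5 had 20 and 8 UMIs in mesenchyme-like cells and 3 and 10 in surface epithelium-like cells. None of these 4 was found in RPE-like cells at 20 UMIs or more.

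Other channel and junction genes were counted in the same cells. Of 3 pannexin genes, whose products form channels of similar topology, 1 had enough UMIs in RPE-like cells, and Panx1 stood at 15.3 CPM in control and 10.5 CPM in mutant cells (log2 ratio -0.53). Of 16 genes for connexin partners and regulators, 15 were measured there, 2 lay lower and 0 higher past 2-fold, beside 6.07% and 3.02% of all genes there, with a median log2 ratio of -0.16 beside -0.02 for all genes. The 2 were Cav1, a caveolar coat protein gene, with 19 UMIs in control and 1 in mutant cells, and Nov, a matrix protein gene, with 17 and 3. In control cells outside the RPE-like class they stood at 49.3 and 31.8 CPM, and Nov was among the leading genes of a mesenchyme-like cluster. Mesenchyme markers in RPE-like cells were lower in the mutant too, at 2668 and 330 CPM. The part of mesenchyme RNA in these 2 values was not tested. The scaffold gene Tjp1 (31.7 and 22.4 CPM), whose product ties gap and tight junctions to the cytoskeleton, was under 2-fold, as was Nedd4, a ubiquitin ligase that acts on Gja1 protein, at 765 and 724 CPM.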

How the data were processed

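The authors counted UMIs of 3′ libraries (10x Genomics) in Cell Ranger (7.1.0 in the submitters' notes, 3.1.0 in the matrix headers) against mm10, and the deposited matrices hold these raw counts per gene and barcode, without normalization. The annotation behind the counts is not given in the sources used here. The connexin genes and gene lists were chosen with earlier results of these data known. Barcodes with at least 200 genes and at most 15% mitochondrial UMIs were kept, the study's limits. Its upper limit of 2000 UMIs was tried as an alternative, since 80.2% of control and 92.1% of mutant barcodes exceed it. Doublets were called with Scrublet (scanpy 1.11.5) at an expected 0.8% per 1000 cells in both libraries, because its own threshold marked 0% of control barcodes.

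Cells were clustered in Seurat 5.3.0 (R 4.3.3) after anchor integration, with 2000 variable genes, 30 components and a Louvain resolution of 1. It left out 62 genes: all connexins, partner, pannexin and sex-linked genes, Myrf, Tmem98, and RPE and melanocyte markers. Clusters were named by enriched markers (a UMI in at least 10% of cells and at least 2-fold over the other clusters). A name needed at least 3 enriched markers, and no fewer enriched markers than others in its list. Clusters stayed unnamed where a second name was as close, where markers of another class led, or where shallow cells had no marker among the leading genes. UMIs were summed per library and class. CPM have exact Poisson intervals, ratios conditional Poisson intervals and shares Clopper-Pearson intervals (scipy 1.17.1), and a count of 0 was given a limit of 3. Ratios and their intervals were checked on simulated Poisson counts per gene. That simulation held no cells or classes, so it does not cover the clumping of UMIs in a few cells. Genes were named by rule: all 9 connexins, family members with at least 20 UMIs, the fixed lists, and the 5 genes most alike for connexins with at least 50 UMIs. Some genes that these rules name are not reported here. Positions come from GENCODE M21.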

Additional observations from a re-analysis of the deposited data

Results flagged for a closer look

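Gja1 differed in direction between cell classes of the same pair of libraries. Its log2 ratio of mutant over control was 0.66 in RPE-like cells and 0.20 in mesenchyme-like cells, and it was -1.46 in photoreceptor-like, -1.22 in amacrine-like, -0.82 in retinal progenitor-like and -0.38 in surface epithelium-like cells. Each of these counting intervals excludes 0, and with 1 library per genotype the difference between classes was not tested. The values in the 3 retinal classes rest on levels under 9 CPM, beside RPE transcripts that were also lower there in the mutant library.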

How the results depend on the processing

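With 1 library per genotype no replicate could be left out. No paired analysis was possible because each genotype has 1 library. Gjb1 in RPE-like cells was lower in the mutant under all 13 alternatives that gave a value, with bounds from -5.54 to -1.32 on the log2 scale in 12 and a ratio of -5.66 with 1 CPM added. The upper limit of 2000 UMIs gave none, because the mutant cells left were too shallow for a bound. Gja1 in RPE-like cells was higher under all 14, from 0.62 to 1.03, and moved from 0.66 to 0.92 with a mitochondrial limit of 5%, 0.76 with the upper limit of 2000 UMIs, 1.03 in cells with Y-linked UMIs alone and 0.77 in cells gated by pigment genes. Of the 9 connexins 5 kept their highest class under the limit of 2000 UMIs. Gja4 was highest in endothelial-like cells without integration, with doublets kept and with the mitochondrial limit of 5%, where the pericyte-like class was larger. Gjc1 was highest in retinal progenitor-like cells with the mitochondrial limit of 5%, and Gjd2 in red blood-like cells when thinned and in mesenchyme-like cells with Xist alone. Pairs past 2-fold numbered 6. They numbered 3 with the mitochondrial limit of 5%, 3 with thinned cells, 0 under the limit of 2000 UMIs, 11 at a minimum of 1 UMI and 1 at 100 UMIs. Among the 11 log2 ratios whose interval excludes 0, reversed values were 0.67 for Gja4 in endothelial-like cells under the limit of 2000 UMIs, 0.082 for Gja4 in pericyte-like cells with the mitochondrial limit of 5%, -0.10 for Gja1 in mesenchyme-like cells with Xist alone, 0.34 for Gja1 in thinned surface epithelium-like cells and 0.25 for Gjb2 in surface epithelium-like cells with Xist alone. The causes were not tested. The unnamed cluster led by Col10a1, with Gja4 at 2.32 and 1.97 CPM, had 7 of the pericyte markers. Of 137 values for these 11 ratios, 116 kept their sign within the reported interval (for Gjb1, with an interval below 0), 16 kept it outside that interval and 5 changed sign. Of 148 values for 12 ratios whose interval includes 0, such as Gja5 in endothelial-like cells, 32 had the opposite sign. In 0 of these 37 did the value's own interval exclude 0. The intervals of value and alternative failed to overlap in 3 of 285. Depth limits Gjd2, Gja5 and Gjb6, with at most 100 UMIs each over the kept cells of both libraries.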
